A study of Mus musculus with 21 samples.

Results

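Gene expression at day 4 of nephritis was compared between 4 mice lacking Epac1 in podocytes and 3 littermates with an intact gene, which are 7 of the 21 libraries of the study. The knockout mice were Epac1fl/fl and carried a Cre recombinase active in podocytes, a genotype that the labels call a conditional knockdown. The floxed mice were Epac1fl/fl without Cre, so both groups share the floxed alleles. All were females of 3 months, and all received decomplemented nephrotoxic serum, an antiserum that damages the glomerular filter, dosed by body weight and injected intravenously on 2 consecutive days. Glomeruli were cut by laser microdissection from frozen kidney and sequenced with a kit that reads the 3' end of polyadenylated RNA, with 1 library per mouse. Libraries are named by genotype and replicate number. The series also holds 6 libraries of mice given PBS and 8 libraries of day 11, and these are used below only to set the day 4 difference beside the other stages.

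Epac1, encoded by Rapgef3, is activated by cyclic AMP and exchanges GDP for GTP on the small GTPases Rap1 and Rap2, which act on integrin adhesion and cell junctions. Podocytes wrap the glomerular capillaries with foot processes joined by the slit diaphragm, and they rest on a basement membrane shared with the endothelium. In nephritis caused by antibodies against the glomerulus podocytes lose their foot processes, leukocytes can enter the tuft, and cells of the capsule can proliferate.

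In knockout glomeruli at day 4, 0 genes passed edgeR's quasi-likelihood test after adjustment. Among the genes with the smallest p-values were Lrrfip1, at 425 ± 153.4 CPM in knockout (SD, n = 4) and 122 ± 41.5 CPM in floxed glomeruli (SD, n = 3), and Arap3, at 152 ± 34.6 CPM in knockout (SD, n = 4) and 35.2 ± 11.8 CPM in floxed glomeruli (SD, n = 3). Malat1 lay lower, at 6848 ± 851 CPM in knockout (SD, n = 4) and 9396 ± 448 CPM in floxed glomeruli (SD, n = 3). Log2 fold changes were above 0 for 55.5% of all 3513 genes described, for 7 of 8 slit diaphragm and adhesion genes of podocytes, for 52 of 73 ribosomal protein genes and for 6 of 10 genes of glycolysis, the last share lying near that of all genes.

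The 7 libraries held between 12465774 reads (knockout replicate 3) and 24295712 reads (floxed replicate 1). Levels are given as CPM, which are counts scaled to a common library size. Of 13898 genes tested, 3513 had a mean of 50 CPM or more over the 7 libraries, and the description rests on these. Knockout replicate 3 stood apart. It had 7871 genes with reads, against 9032 to 12167 in the other 6 libraries, and 0 reads in 237 of the 3513 genes, against 5 to 71 in the others. It was the highest library for 878 of them and the lowest for 1077. Its median distance from the middle of the other libraries was 0.98 on the log2 scale, against 0.42 to 0.70 for the others. The counts over all genes and the values that it moves are therefore also given without it.

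Markers of podocytes, endothelium and mesangium were present in all 7 libraries, while the 2 markers of parietal epithelium summed to 44.0, 2.95, 0 and 45.2 CPM in knockout libraries and to 70.0, 10.5 and 31.1 CPM in floxed libraries. The 7 podocyte markers summed to 3660 to 6481 CPM in knockout and to 4196 to 5250 CPM in floxed libraries, and the 5 endothelial markers to 3265 to 5099 CPM in knockout and to 3013 to 3448 CPM in floxed libraries. The 4 mesangial markers summed to 157 to 639 CPM in knockout and to 406 to 492 CPM in floxed libraries. Tubular RNA was also present: the 5 proximal tubule markers summed to 993 to 5030 CPM in knockout and to 1057 to 3306 CPM in floxed libraries, and the 4 markers of the distal nephron to 1124 to 3597 CPM in knockout and to 1144 to 1825 CPM in floxed libraries. Over these markers knockout replicate 3 supplied the lowest podocyte and mesangial sums and the highest tubular sums of the 7 libraries. Its podocyte marker sum was 3660 CPM and its proximal tubule marker sum was 5030 CPM. Single markers differed from these sums. Synpo (736 CPM) and Des (6.23 CPM) were lowest in knockout replicate 3, while its Thsd7a (528 CPM) and Ptpro (362 CPM) lay above all floxed libraries. For the mesangial marker Gata3 knockout replicate 2 was lower (24.4 against 35.1 CPM). The whole proximal tubule list did not put knockout replicate 3 highest, at 14590 CPM. Knockout replicate 2 held 15570 CPM and floxed replicate 2 held 15840 CPM. The 5 macrophage markers summed to 302, 314, 73.7 and 258 CPM in knockout libraries and to 158, 175 and 142 CPM in floxed libraries, so that knockout replicates 1, 2 and 4 lay above and replicate 3 below all floxed libraries. The whole macrophage list did not separate in that way, with sums of 734, 731, 198.6 and 689 CPM in knockout libraries and 725.5, 683 and 598 CPM in floxed libraries, and 3 of its 5 genes at 50 CPM or more lay below 0 (median log2 fold change −0.69). Neutrophil markers summed to at most 8.06 CPM in knockout and 65.6 CPM in floxed libraries, and Ly6g, a defining neutrophil gene, was at 0 in all 7. The part of these differences in the results below was not tested. In such bulk samples fewer cells of a type and less RNA per cell cannot be told apart.

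**Figure D1:**
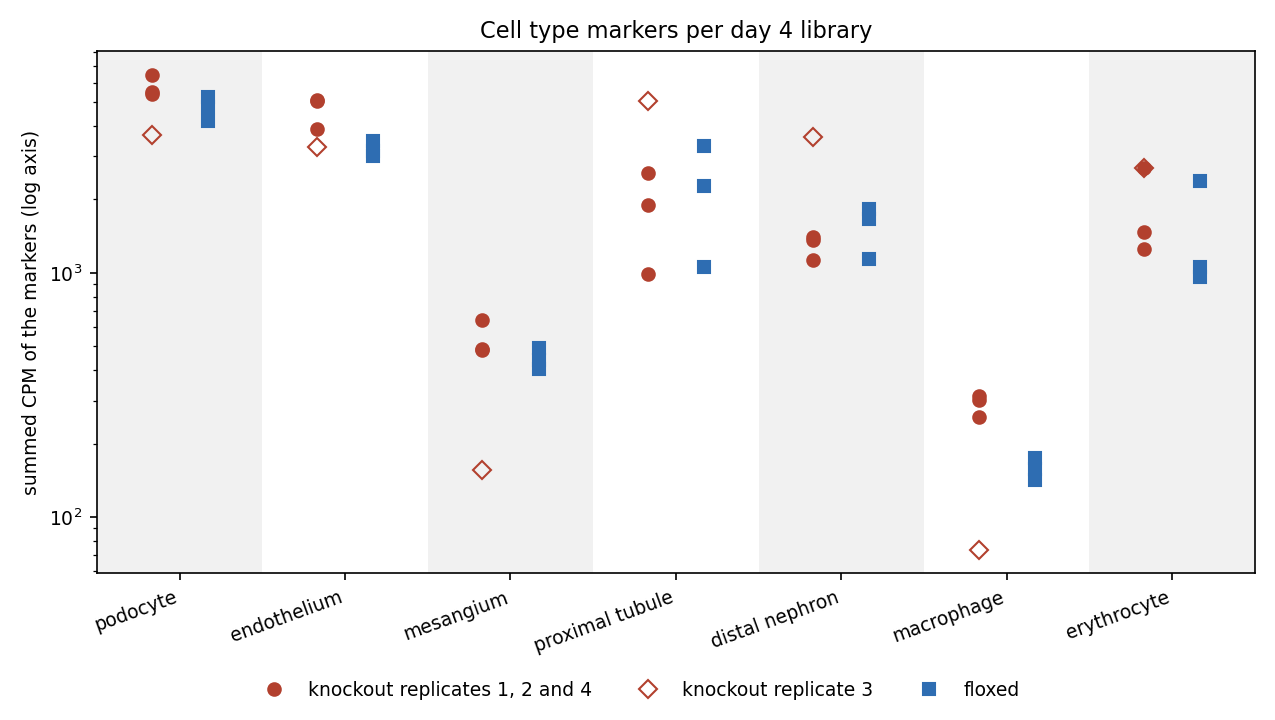
Summed CPM of cell type markers (vertical log axis) in each day 4 library, with knockout libraries left of floxed libraries for each cell type and knockout replicate 3 as an open diamond. Replicate 3 is lowest for podocyte, mesangial and macrophage markers (3660, 157 and 73.7 CPM) and highest for proximal tubule and distal nephron markers (5030 and 3597 CPM).

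The targeted gene Rapgef3 (chromosome 15, 97744770 to 97767972, minus strand, GRCm38) was measured first. It had 126, 146, 63.4 and 145 CPM in knockout replicates 1 to 4, against 124, 217 and 231 CPM in floxed replicates 1 to 3. Floxed replicate 1 lay within the range of the knockout libraries, so the groups overlap, and the lowest value was that of knockout replicate 3. The means were 119.9 ± 38.8 CPM in knockout (SD, n = 4) and 191 ± 58.0 CPM in floxed glomeruli (SD, n = 3). The log2 fold change was −0.67 ± 0.43 (SE, 95% interval −1.54 to 0.20), and −0.46 ± 0.42 without knockout replicate 3. By edgeR's quasi-likelihood test with Benjamini-Hochberg adjustment the adjusted p was 0.88, and an exact two-sided permutation of the CPM values gave p = 0.23, where 35 arrangements allow no p below 0.057. Neither the deleted exons nor the position of the tags is given in the sources used here, and endothelial and mesangial cells keep the gene, so this value is no check of the deletion. Rapgef4 encodes Epac2, the other cyclic AMP-regulated exchange factor for Rap. It had 48.5, 138, 0 and 50.2 CPM in knockout libraries, against 21.3, 17.3 and 77.2 CPM in floxed libraries, and the groups overlap.

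Nipal1 and Prm1 had few or no reads in floxed glomeruli. Nipal1 (chromosome 5, 72647795 to 72671078, plus strand, GRCm38), whose product belongs to the NIPA magnesium transporters, had 127, 22.5, 0.154 and 126 CPM in knockout replicates 1 to 4, against 2.92, 2.96 and 0.0587 CPM in floxed libraries. Knockout replicates 1, 2 and 4 lay above all floxed libraries and replicate 3 lay among them. Its log2 fold change was 5.12 ± 1.47 (SE, unadjusted p = 0.0014, adjusted p = 0.66 by edgeR), and 5.53 ± 1.20 without knockout replicate 3 (unadjusted p = 7.3e-05, adjusted p = 0.51). Prm1, a sperm protamine gene, had 51.6, 39.1, 17.1 and 3.47 CPM in knockout libraries and 0 reads in all 3 floxed libraries. Against a floor of 3 reads over the floxed libraries the knockout mean was at least 578-fold higher, with an adjusted p of 0.66 by edgeR, 0.0082 by voom and 1.1e-05 by DESeq2. For Nipal1 the adjusted p was 0.72 by voom and 0.00034 by DESeq2. The floor for Prm1 covers counting error only.

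By edgeR 0 of the 13898 tested genes were called between knockout and floxed glomeruli at an adjusted p under 0.05 (0%), and the smallest adjusted p was 0.66. DESeq2 called 800 genes (5.76%), of which 675 (84.4%) had a group without reads, and 12 of them had 50 CPM or more (0.342%). Limma voom called 8 genes (0.0576%), of which 1 was higher in knockout, Prm1. Those at 50 CPM or more were 2 (0.0569%), the mitochondrial mt-Co1 and mt-Co2, both lower. Before adjustment 1031 of the tested genes had a p under 0.05 (7.42%), 298 of them higher in knockout (2.14%) and 733 lower (5.27%). Without knockout replicate 3 there were 851 of 13861 tested genes (6.14%), 320 higher (2.31%) and 531 lower (3.83%). With all 7 libraries the 3513 genes with 50 CPM or more held 105 at that p (2.99%), 71 higher (2.02%) and 34 lower (0.968%). Leaving out knockout replicate 1 gave 77 lower genes, knockout replicate 4 74 and floxed replicate 1 19. The knockout and floxed values did not overlap in 4.78% of the 3513 genes, 96 of them higher (2.73%) and 72 lower in knockout (2.05%), and 57 of these also had an unadjusted p under 0.05. With knockout replicate 3 left out the shares were 5.81% higher and 4.21% lower, and leaving out any other library also raised them, since fewer values can overlap.

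Over the 3513 genes the median log2 fold change was 0.07, with 1948 genes above 0 (55.5%) and 1565 below. The median size of the log2 fold change was 0.40 and the median standard error 0.70. The 95% interval excluded every change of 2-fold or more for 370 genes (10.5%), and for the rest it reached 2-fold or beyond. With median-ratio size factors the median log2 fold change over the 3513 genes was 0.13 (59.4% above 0). Voom gave a median of −0.09, on the other side of 0. Without knockout replicate 3 edgeR again called 0 genes (smallest adjusted p 0.51), the median log2 fold change was 0.04 with 1865 genes above 0 (53.1%), and 121 of the 3513 genes stood at an unadjusted p under 0.05 (3.44%), 74 higher (2.11%) and 47 lower (1.34%). Of the 3513 genes 2838 (80.8%) had the same sign in both fits. All 105 genes kept their sign without that library, 57 of them stayed under an unadjusted p of 0.05, and 64 others came in.

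**Figure D2:**
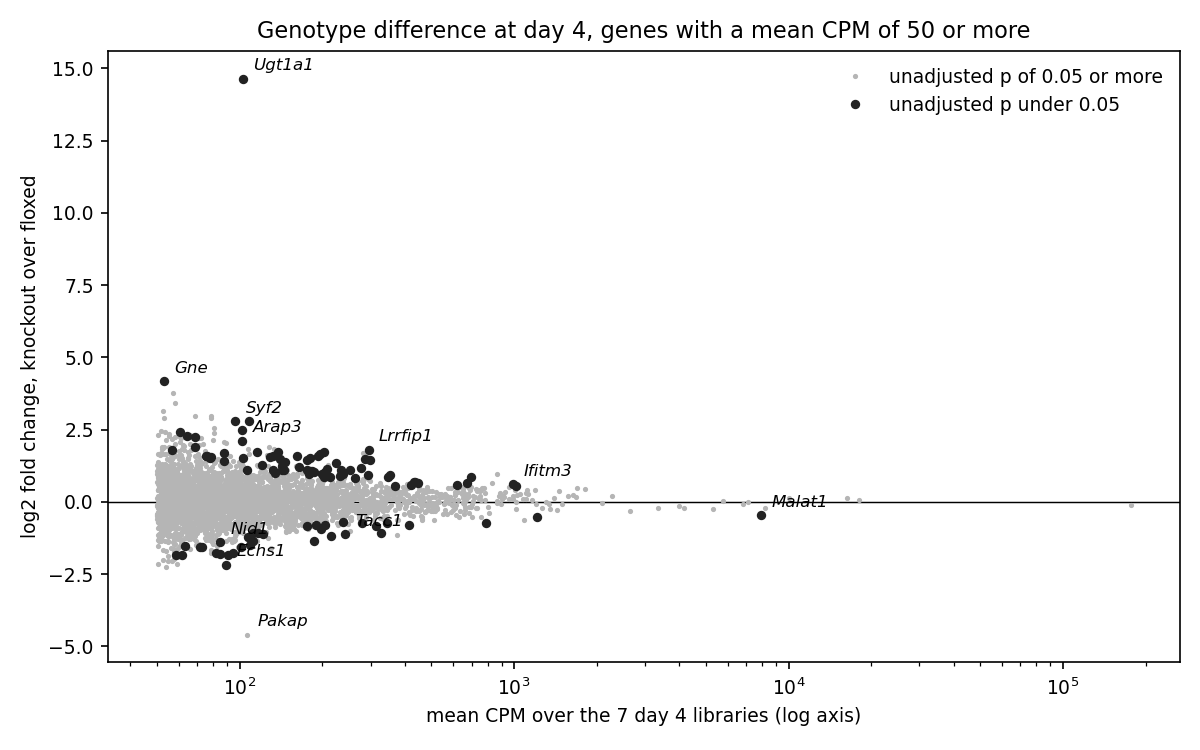
Log2 fold change of knockout over floxed glomeruli at day 4 (vertical axis) against mean CPM over the 7 libraries (horizontal log axis) for the 3513 genes with 50 CPM or more, with the 105 genes at an unadjusted p under 0.05 as large dark points. Most genes lie close to 0, with a median size of 0.40, and the spread narrows toward higher CPM; Ugt1a1 and Pakap at the margins share their 3' ends with other genes.

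The 12 genes higher in knockout with the smallest p among those without overlap were led by Lrrfip1 (chromosome 1, 90998737 to 91128944, plus strand, GRCm38), whose product binds nucleic acids and the actin regulator Flightless-1. It had 267, 613, 339.9 and 479 CPM in knockout libraries, against 167, 113 and 84.8 CPM in floxed libraries. All 4 knockout libraries lay above all floxed libraries, with knockout replicate 1 the closest. The means were 425 ± 153.4 CPM in knockout (SD, n = 4) and 122 ± 41.5 CPM in floxed glomeruli (SD, n = 3), and the log2 fold change was 1.80 ± 0.40 (SE, unadjusted p = 7.5e-05, adjusted p = 0.66 by edgeR). Its log2 fold change was 1.90 without knockout replicate 3 and lay between 1.57 and 2.11 when any 1 of the 7 libraries was left out. It was 1 of 12 genes with 50 CPM or more called by DESeq2.

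Arap3 (chromosome 18, 37972628 to 37998969, minus strand, GRCm38) encodes a GTPase-activating protein for Arf6 and RhoA that binds phosphoinositides and whose activity toward RhoA is stimulated by GTP-bound Rap1. It had 100.4, 171, 168.1 and 169.7 CPM in knockout libraries, against 45.3, 38.1 and 22.2 CPM in floxed libraries. The groups were far apart, with knockout replicate 1 the lowest of its group. The log2 fold change was 2.11 ± 0.56 (SE, unadjusted p = 0.00067, adjusted p = 0.66 by edgeR), and 2.06 without knockout replicate 3.

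Syf2, a component of the spliceosome, had 135, 199.6, 233 and 40.7 CPM in knockout libraries, against 20.7, 36.0 and 9.45 CPM in floxed libraries, with a log2 fold change of 2.78 ± 0.75 (SE). Knockout replicate 4 came close to the highest floxed library. R3hdm4, which encodes a protein with an R3H domain, averaged 165 ± 22.0 CPM in knockout (SD, n = 4) and 49.5 ± 22.1 CPM in floxed glomeruli (SD, n = 3). Prmt1, the main arginine methyltransferase of mammalian cells, had 183, 361, 353 and 258 CPM in knockout libraries, against 118, 60.9 and 83.6 CPM in floxed libraries, a log2 fold change of 1.72 ± 0.56. H3f3b, which encodes the replacement histone H3.3, averaged 444 ± 93.3 CPM in knockout (SD, n = 4) and 234 ± 66.6 CPM in floxed glomeruli (SD, n = 3). A second gene, H3f3a, encodes the same protein. These 6 genes were all among the DESeq2 calls.

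The remaining 6 had unadjusted p-values from 0.0094 to 0.015. Senp6, a protease that removes SUMO chains, had the most even values of the 12, averaging 185 ± 15.9 CPM in knockout (SD, n = 4) and 86.0 ± 17.7 CPM in floxed glomeruli (SD, n = 3). Galnt10, an enzyme that starts mucin-type O-glycans, averaged 328 ± 94.7 CPM in knockout (SD, n = 4) and 152.7 ± 42.0 CPM in floxed glomeruli (SD, n = 3). Pnkd, which overlaps Tmbim1 on the other strand, had a log2 fold change of 1.37 ± 0.50. For the other 3 genes knockout replicate 3 was far above its group. The microtubule-associated gene Eml2 had 203, 273, 583 and 153.3 CPM in knockout libraries, against 138, 87.6 and 129 CPM in floxed libraries. The membrane protein gene Bri3, which overlaps Baiap2l1, had 683, 576, 1528 and 668 CPM in knockout libraries, against 465, 464 and 499.8 CPM in floxed libraries. Copz1, a subunit of the COPI vesicle coat, had 298 CPM in replicate 3 and averaged 194 ± 70.0 CPM in knockout (SD, n = 4) and 69.0 ± 15.4 CPM in floxed glomeruli (SD, n = 3). Without replicate 3 the log2 fold changes were 0.83 for Eml2 (1.36 with it), 0.43 for Bri3 (0.86 with it) and 1.20 for Copz1 (1.49 with it).

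**Figure D3:**
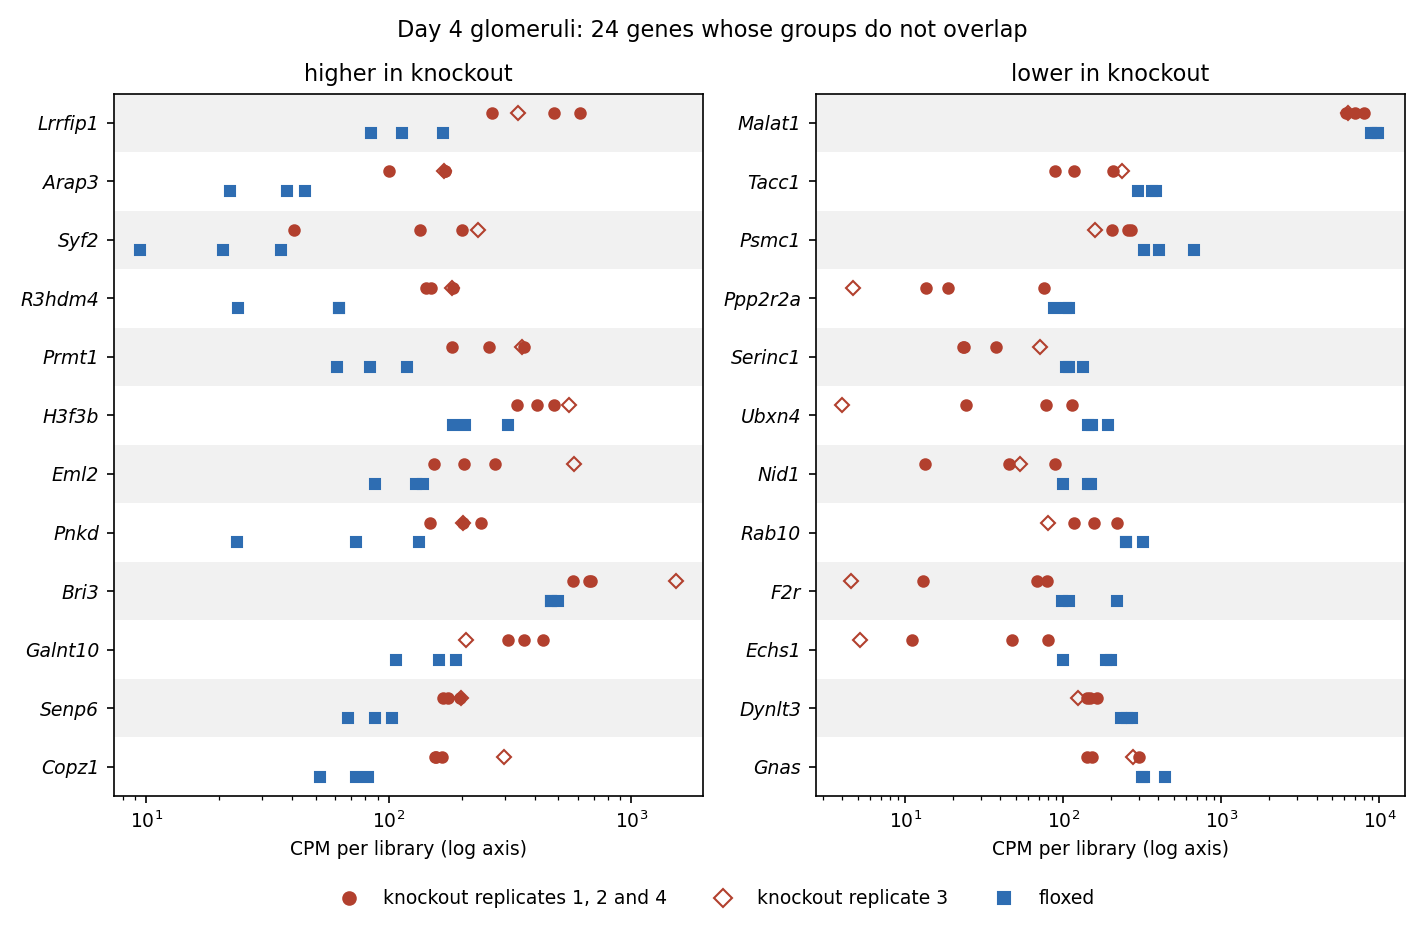
CPM per day 4 library (horizontal log axis) for the 12 genes higher and the 12 genes lower in knockout with the smallest p among genes whose groups do not overlap, with knockout values above floxed values in each row and knockout replicate 3 as an open diamond. The genes were chosen for this separation; Bri3 reaches 1528 CPM and Ppp2r2a drops to 4.69 CPM in replicate 3, while Senp6 stays near its knockout mean of 185 CPM in all 4 knockout libraries.

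The 12 genes lower in knockout were led by Malat1 (chromosome 19, 5795690 to 5802672, minus strand, GRCm38), an abundant nuclear noncoding RNA. It had 7996, 6120.0, 6295 and 6981 CPM in knockout libraries, against 8909, 9489 and 9790.0 CPM in floxed libraries. The means were 6848 ± 851 CPM in knockout (SD, n = 4) and 9396 ± 448 CPM in floxed glomeruli (SD, n = 3). Its difference was small and tightly measured, with a log2 fold change of −0.46 ± 0.14 (SE, 95% interval within a 2-fold change, unadjusted p = 0.0021, adjusted p = 0.66 by edgeR), and −0.42 without knockout replicate 3.

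Psmc1, an ATPase of the proteasome cap, had 202, 267, 158 and 256 CPM in knockout libraries, against 404, 672 and 324 CPM in floxed libraries, and floxed replicate 2 stood highest. Tacc1, a coiled-coil protein of centrosomes and microtubules, had 206, 88.7, 235 and 117 CPM in knockout libraries, against 365, 388 and 298 CPM in floxed libraries, a log2 fold change of −1.11 ± 0.36 that moved to −1.35 without knockout replicate 3. Ppp2r2a, a regulatory subunit of protein phosphatase 2A, had 75.3, 13.6, 4.69 and 18.6 CPM in knockout libraries, against 99.8 ± 10.7 CPM in floxed glomeruli (SD, n = 3). Its knockout values spread widely while its floxed values lay close together. With knockout replicate 1 left out, Ppp2r2a (−3.02, adjusted p = 0.034) and Lrrfip1 (1.97, adjusted p = 0.039) were the 2 genes with 50 CPM or more among 14 calls by edgeR, and leaving out any other day 4 library gave 0 calls. Serinc1, a membrane protein linked to serine-derived lipids, had 23.1, 23.6, 71.4 and 37.4 CPM in knockout libraries, against 109, 104 and 133 CPM in floxed libraries, and its log2 fold change was −1.57 with knockout replicate 3 and −2.05 without it.

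Gnas encodes the G protein subunit that couples receptors to adenylyl cyclase and so stands upstream of Epac1. It had 301, 142, 278 and 151 CPM in knockout libraries, against 322, 438 and 315 CPM in floxed libraries. The highest knockout library came close to the lowest floxed library, and the log2 fold change was −0.72 ± 0.33 (SE, unadjusted p = 0.039, adjusted p = 0.66 by edgeR). Gnas overlaps the predicted gene Gm20721 on the other strand. F2r, the thrombin receptor PAR1, had 68.4, 12.9, 4.54 and 78.3 CPM in knockout libraries, against 109, 98.6 and 220.0 CPM in floxed libraries, and Rab10, a GTPase of vesicle transport, averaged 143 ± 59.1 CPM in knockout (SD, n = 4) and 272 ± 41.4 CPM in floxed glomeruli (SD, n = 3). Echs1, a mitochondrial enzyme of fatty acid oxidation whose gene overlaps Paox, had 47.2, 80.0, 5.15 and 11.0 CPM in knockout libraries, against 198.9, 185 and 99.4 CPM in floxed libraries. Dynlt3, a dynein light chain, had a narrow spread, at 162, 141, 124 and 146 CPM in knockout libraries, against 272, 233 and 253 CPM in floxed libraries. Ubxn4, which acts in degradation of proteins from the endoplasmic reticulum, averaged 54.6 ± 49.7 CPM in knockout (SD, n = 4) and 162 ± 26.7 CPM in floxed glomeruli (SD, n = 3). Knockout replicate 3 was the lowest of the 7 libraries for F2r, Echs1, Rab10, Ubxn4 and Dynlt3. Without it 18 of the 24 named genes stayed at an unadjusted p under 0.05, and the smallest adjusted p among them was 0.51.

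Among the podocyte genes, 7 of the 8 slit diaphragm and adhesion genes with 50 CPM or more lay above 0, against 55.5% of all 3513 genes. Their median log2 fold change was 0.33, against 0.07 over all 3513 genes. The same 8 genes had 5 above 0 under PBS (median 0.11) and 3 at day 11 (median −0.13). At day 4 Magi2 (0.0040 ± 0.46, SE) and Cd151 (0.045 ± 0.43) lay close to 0. Of all 14 list members tested, 9 lay above 0 at day 4. An unadjusted p under 0.05 was found for 1 of the 8, against 2.99% of all 3513 genes. That gene was Thsd7a, a podocyte membrane protein known as an autoantigen of human membranous nephropathy. It had 483, 434, 528 and 624 CPM in knockout libraries, against 218, 418 and 337 CPM in floxed libraries. The groups did not overlap, although knockout replicate 2 and floxed replicate 2 were close, and the log2 fold change was 0.67 ± 0.29 (SE, unadjusted p = 0.028, adjusted p = 0.66 by edgeR). Nphs1, which encodes nephrin of the slit diaphragm, had 397, 611, 274 and 454 CPM in knockout libraries, against 347, 511 and 221 CPM in floxed libraries, and the groups overlap. Of the 17 cytoskeletal and apical membrane genes 8 lay above 0 with a median of −0.0050, which moved to 0.18 with 11 of 17 above 0 without knockout replicate 3. Podxl, the anionic sialomucin of the foot process surface, averaged 2409 ± 598 CPM in knockout (SD, n = 4) and 2096 ± 902 CPM in floxed glomeruli (SD, n = 3). Synpo, an actin-associated protein of foot processes, averaged 1181 ± 327 CPM in knockout (SD, n = 4) and 1367 ± 439 CPM in floxed glomeruli (SD, n = 3). Cald1, an actin-binding protein, was the 1 member at an unadjusted p under 0.05, with 1009, 799.8, 852 and 1402 CPM in knockout libraries, against 1682, 1480.0 and 1243 CPM in floxed libraries, and knockout replicate 4 overlapped the floxed range. Of 9 podocyte transcription factor genes 5 lay above 0, among them Wt1 with 137, 18.4, 124 and 149.9 CPM in knockout libraries, against 92.5, 152 and 61.4 CPM in floxed libraries. Foxd2, the member with the smallest p there, was at 315 CPM in knockout replicate 3 and between 36.3 and 60.5 CPM in the other knockout libraries, and its log2 fold change was 1.24 with replicate 3 and −0.05 without it.

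Endothelial, mesangial and matrix genes showed no common direction as lists. Of 18 endothelial genes 7 lay above 0 (median −0.05). Kdr, the main VEGF receptor of endothelium, had 919, 1253, 1009 and 1530.0 CPM in knockout libraries, against 709, 857 and 844 CPM in floxed libraries, a log2 fold change of 0.55 ± 0.24 (SE, unadjusted p = 0.028, adjusted p = 0.66 by edgeR) without overlap between the groups. Igfbp5, which encodes a binding protein of insulin-like growth factors, was lower without overlap, with 842, 508, 290.0 and 827 CPM in knockout libraries, against 1138, 1053 and 880.2 CPM in floxed libraries, and −0.73 with knockout replicate 3 became −0.50 without it. Of 15 mesangial and smooth muscle genes 7 lay above 0 (median −0.19, and −0.01 without knockout replicate 3). Desmin, encoded by Des, had 187, 487, 6.23 and 138 CPM in knockout libraries, against a floxed mean of 106 ± 30.2 CPM (SD, n = 3), and knockout replicate 3 was the lowest of the 7 libraries. Its log2 fold change was 0.96 ± 0.74 with replicate 3 and 1.36 ± 0.58 without it.

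Of 11 basement membrane genes 7 lay above 0 (median 0.14), against 55.5% of all 3513 genes, and 2 were lower without overlap, against 2.05% of all 3513 genes. Nid1, which encodes nidogen, a linker of laminin and type IV collagen, had 88.1, 45.6, 53.4 and 13.3 CPM in knockout libraries, against 149.6, 100.2 and 143 CPM in floxed libraries, a log2 fold change of −1.39 ± 0.55. Col4a1, a chain of the type IV collagen network, had 666, 634, 331 and 494 CPM in knockout libraries, against 716, 734 and 837 CPM in floxed libraries. Its log2 fold change of −0.52 ± 0.26 was −0.35 without knockout replicate 3, and it overlaps Col4a2 on the other strand, which was at 0.31 ± 0.33. Of 14 interstitial matrix genes 6 lay above 0 (median −0.05). Col1a2, a chain of type I collagen, had 217, 276, 236 and 203.6 CPM in knockout libraries, against 146, 159.9 and 154 CPM in floxed libraries, without overlap but with an unadjusted p of 0.12.

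Genes of cyclic AMP signalling and its Rap branch did not share a direction. Of 11 Epac and Rap genes with 50 CPM or more, 4 lay above 0 with a median log2 fold change of −0.27, and 0 had an unadjusted p under 0.05. The GTPase genes Rap1a and Rap1b averaged 48.0 ± 18.1 CPM and 104 ± 59.7 CPM in knockout glomeruli (SD, n = 4), against 80.0 ± 26.8 CPM and 126 ± 15.0 CPM in floxed glomeruli (SD, n = 3). Of 14 genes of cyclic AMP production, breakdown and protein kinase A, 9 lay above 0 with a median of 0.21, with 1 higher (Akap2) and 1 lower (Gnas) at an unadjusted p under 0.05. Over all 3513 genes 55.5% lay above 0, and 2.02% were higher and 0.968% lower at that p. Akap2, an anchoring protein of protein kinase A, had 341, 729.8, 269.6 and 238 CPM in knockout libraries, against 34.8, 136 and 249 CPM in floxed libraries. It shares its 3' end with Pakap, and Pakap had 0, 0, 39.0 and 0 CPM in knockout libraries, against 439.6, 265 and 0 CPM in floxed libraries. The floxed libraries low in Akap2 were those high in Pakap. Summed over both genes the means were 404 ± 221 CPM in knockout (SD, n = 4) and 375 ± 115 CPM in floxed glomeruli (SD, n = 3), a log2 ratio of 0.11.

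The largest fitted fold change among the 3513 genes had the same form. Ugt1a1, a glucuronosyltransferase gene chosen for mention after its values were seen, had 62.1, 0, 566 and 90.6 CPM in knockout libraries and 0 reads in all 3 floxed libraries, and it was among the DESeq2 calls. Its neighbour Ugt1a8, which ends in the same exons, had 333, 552, 0 and 100.7 CPM in knockout libraries, against 599.7, 569.9 and 474 CPM in floxed libraries. Knockout replicate 3 had reads for Ugt1a1 and 0 for Ugt1a8. Summed over the 9 Ugt1a genes the libraries held 395, 552, 566 and 191 CPM in knockout, against 599.8, 582 and 474 CPM in floxed glomeruli. How reads of shared 3' ends were divided is not given in the sources used here.

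Glycolysis, the pathway named by the study, lay close to the background in its share of genes above 0. Of 10 genes with 50 CPM or more, 6 lay above 0, against 55.5% of all 3513 genes. The median log2 fold change was 0.17 (0.15 without knockout replicate 3). At an unadjusted p under 0.05 by edgeR 0 were higher and 1 was lower, against 2.02% and 0.968% of all 3513 genes. Without overlap 1 was higher and 1 lower, against 2.73% and 2.05%. Ldhb, the heart-type subunit of lactate dehydrogenase, had 233, 152.6, 76.7 and 94.3 CPM in knockout libraries, against 312, 230.3 and 404 CPM in floxed libraries, a log2 fold change of −1.18 ± 0.46 (SE, unadjusted p = 0.015, adjusted p = 0.66 by edgeR) with overlap. Pkm, pyruvate kinase of the last step, had 217, 77.7, 264 and 138 CPM in knockout libraries, against 282, 290.5 and 331 CPM in floxed libraries. The Pkm groups did not overlap, and the log2 fold change was −0.79 ± 0.40, or −1.06 ± 0.41 without knockout replicate 3. Gapdh (0.20 ± 0.62) and Ldha (0.13 ± 0.56) had intervals that reach beyond a 2-fold change. Hk2, a hexokinase below 50 CPM, had 0 reads in all 4 knockout libraries, against 23.6, 3.55 and 34.6 CPM in floxed libraries. Against a floor of 3 reads over the knockout libraries its knockout mean was at least 524-fold lower than the floxed mean. Its adjusted p was 0.66 by edgeR, 0.14 by voom and 0.0015 by DESeq2. That floor covers counting error only. Floxed replicate 2 under PBS and floxed replicates 1 and 3 at day 11 also had 0 CPM. The log2 fold change of Hk2 was 0.01 ± 2.90 (SE) under PBS and 1.21 ± 2.55 at day 11. Hk2 was 1 of 16 tested genes with 0 reads in every knockout library and a floxed mean of 20 CPM or more, and 26 tested genes showed the converse.

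In mitochondrial metabolism 45 of 68 nuclear-encoded respiratory chain genes lay above 0 (median 0.13, and 0.04 with 41 of 68 above 0 without knockout replicate 3), 3 of them higher at an unadjusted p under 0.05. By voom the median of the 68 genes was 0.02, against −0.09 over all 3513 genes. Over all 3513 genes the shares were 55.5% above 0, 53.1% without that library, and 2.02% higher at an unadjusted p under 0.05. Ndufb7, a complex I subunit, had 98.3, 404, 245 and 215 CPM in knockout libraries, against 116, 122 and 28.4 CPM in floxed libraries, and knockout replicate 1 lay within the floxed range. The 12 mitochondrially encoded genes with 50 CPM or more had 4 above 0 and a median of −0.11 (−0.01 by voom). By edgeR 0 of these 12 had an unadjusted p under 0.05, although voom called mt-Co1 and mt-Co2 among them. Of 13 citric acid cycle genes 5 lay above 0 (median −0.31), and Ogdh, a subunit of the 2-oxoglutarate dehydrogenase complex, was the 1 without overlap, with 175, 214, 175 and 198 CPM in knockout libraries, against 341, 325 and 315 CPM in floxed libraries. Its log2 fold change was −0.78 ± 0.41 (SE, unadjusted p = 0.067, adjusted p = 0.71 by edgeR). Over all 3513 genes the groups did not overlap in 4.78%. For cytosolic ribosomal proteins 52 of 73 genes lay above 0 (71.2%, against 55.5% of all 3513 genes), the median was 0.16 with and without knockout replicate 3, although 46 of 73 lay above 0 without it (against 53.1% of all 3513 genes), and 4 were higher and 0 lower at an unadjusted p under 0.05. Rpl18, which overlaps Sphk2 on the other strand, had 117, 139, 164 and 223 CPM in knockout libraries, against 36.6, 54.2 and 107 CPM in floxed libraries.

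The cyclic AMP response element, the site of CREB family factors that protein kinase A activates, was looked up in promoters. The reason was that Epac1 and protein kinase A share the same messenger. The letters searched were TGACGTCA, which read the same on both strands, in RefSeq windows of 300 bases around gene starts (GRCm38.p6). They occur in 588 of all 32851 single windows (1.79%) and in 98 of 2774 genes with 50 CPM or more and a window (3.53%). A gene was counted if any of its windows holds them, so shares of genes cannot be set against the share of windows. Of the genes without overlap the letters occur in 5 of 75 higher (6.67%) and 2 of 58 lower in knockout (3.45%), and in 0 of the 20 with a window among the 24 genes named first. Rapgef3's window (chr15:97767617-97767916, minus strand) does not hold them. Rpl18 and Ogdh, 1 gene higher and 1 lower, do, and their windows are shown in gene direction with the element in capitals, Rpl18 at chr7:45717821-45718120 and Ogdh, for the first of its starts, at chr11:6291347-6291646, both on the plus strand.
Rpl18: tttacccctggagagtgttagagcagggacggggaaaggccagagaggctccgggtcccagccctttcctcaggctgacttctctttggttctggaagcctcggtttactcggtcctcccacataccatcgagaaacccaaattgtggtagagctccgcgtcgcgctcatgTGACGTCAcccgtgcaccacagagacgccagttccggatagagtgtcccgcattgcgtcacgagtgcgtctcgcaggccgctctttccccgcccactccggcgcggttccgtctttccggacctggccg
Ogdh: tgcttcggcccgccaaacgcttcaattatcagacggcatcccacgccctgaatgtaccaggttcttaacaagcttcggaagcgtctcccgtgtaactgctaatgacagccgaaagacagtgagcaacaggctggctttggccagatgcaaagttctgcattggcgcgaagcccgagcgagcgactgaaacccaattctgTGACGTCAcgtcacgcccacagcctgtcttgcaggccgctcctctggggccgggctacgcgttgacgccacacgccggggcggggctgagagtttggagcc
The element starts 79 bases before the gene start in Rpl18 and 51 bases before it in Ogdh. These 2 genes were picked for display from the 98 that carry it, so their opposite signs say nothing about the element.

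Among genes of inflammation, 12 of 16 interferon and MHC genes with 50 CPM or more lay above 0 (median 0.28, and 0.39 with 14 of 16 above 0 without knockout replicate 3), and 1 had an unadjusted p under 0.05. Over all 3513 genes 55.5% lay above 0 (53.1% without that library) and 2.99% had an unadjusted p under 0.05. That gene was Ifitm3, an antiviral membrane protein induced by interferon, with 1076, 1011, 1239 and 1320.0 CPM in knockout libraries, against 919, 624 and 732 CPM in floxed libraries. The groups did not overlap, and the log2 fold change was 0.61 ± 0.25 (SE, unadjusted p = 0.020, adjusted p = 0.66 by edgeR). Of 8 genes of the NF-kappaB and chemokine list 4 lay above 0. Cxcl12, a chemokine made by podocytes among other cells, had 279.7, 192, 47.2 and 238 CPM in knockout libraries, against 85.8, 115 and 42.1 CPM in floxed libraries, and its log2 fold change of 1.23 ± 0.56 was 1.55 ± 0.49 without knockout replicate 3. Of the macrophage list 5 genes reached 50 CPM, of which 2 lay above 0 (median −0.69). Those above were Lyz2 (0.66 ± 0.80) and the complement gene C1qa (1.49 ± 1.43), and those below were Ctss (−0.69 ± 0.75), Lgals3 (−1.30 ± 0.98) and Laptm5 (−1.34 ± 1.23). No neutrophil or lymphocyte list member reached 50 CPM.

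The cell cycle list summed to 2047 CPM in knockout replicate 3, against 2878 to 4097 CPM in the other 6 libraries. Of 12 genes with 50 CPM or more 6 lay above 0 (median −0.06, and 0.17 without replicate 3). In replicate 3, 4 of the 12 had 0 reads, with reads in every other library, against 237 of all 3513 genes at 0 reads there. Mki67, the proliferation marker Ki-67, chosen for mention after its values were seen, had 64.9, 78.5, 0 and 160.9 CPM in knockout libraries, against 56.4, 74.5 and 37.6 CPM in floxed libraries. The same library stood highest for Ddit3, which encodes the stress-induced factor CHOP and overlaps Mars. Ddit3 had 20.3, 0.259, 396 and 22.9 CPM in knockout libraries, against 17.8, 1.43 and 22.6 CPM in floxed libraries, and its log2 fold change was 2.98 with replicate 3 and 0.06 without it. Umod, which encodes uromodulin of the thick ascending limb, stood at 2476 CPM in replicate 3 and between 590.4 and 1065 CPM in the other 6 libraries, and its log2 fold change was 0.54 with replicate 3 and −0.19 without it.

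**Figure D4:**
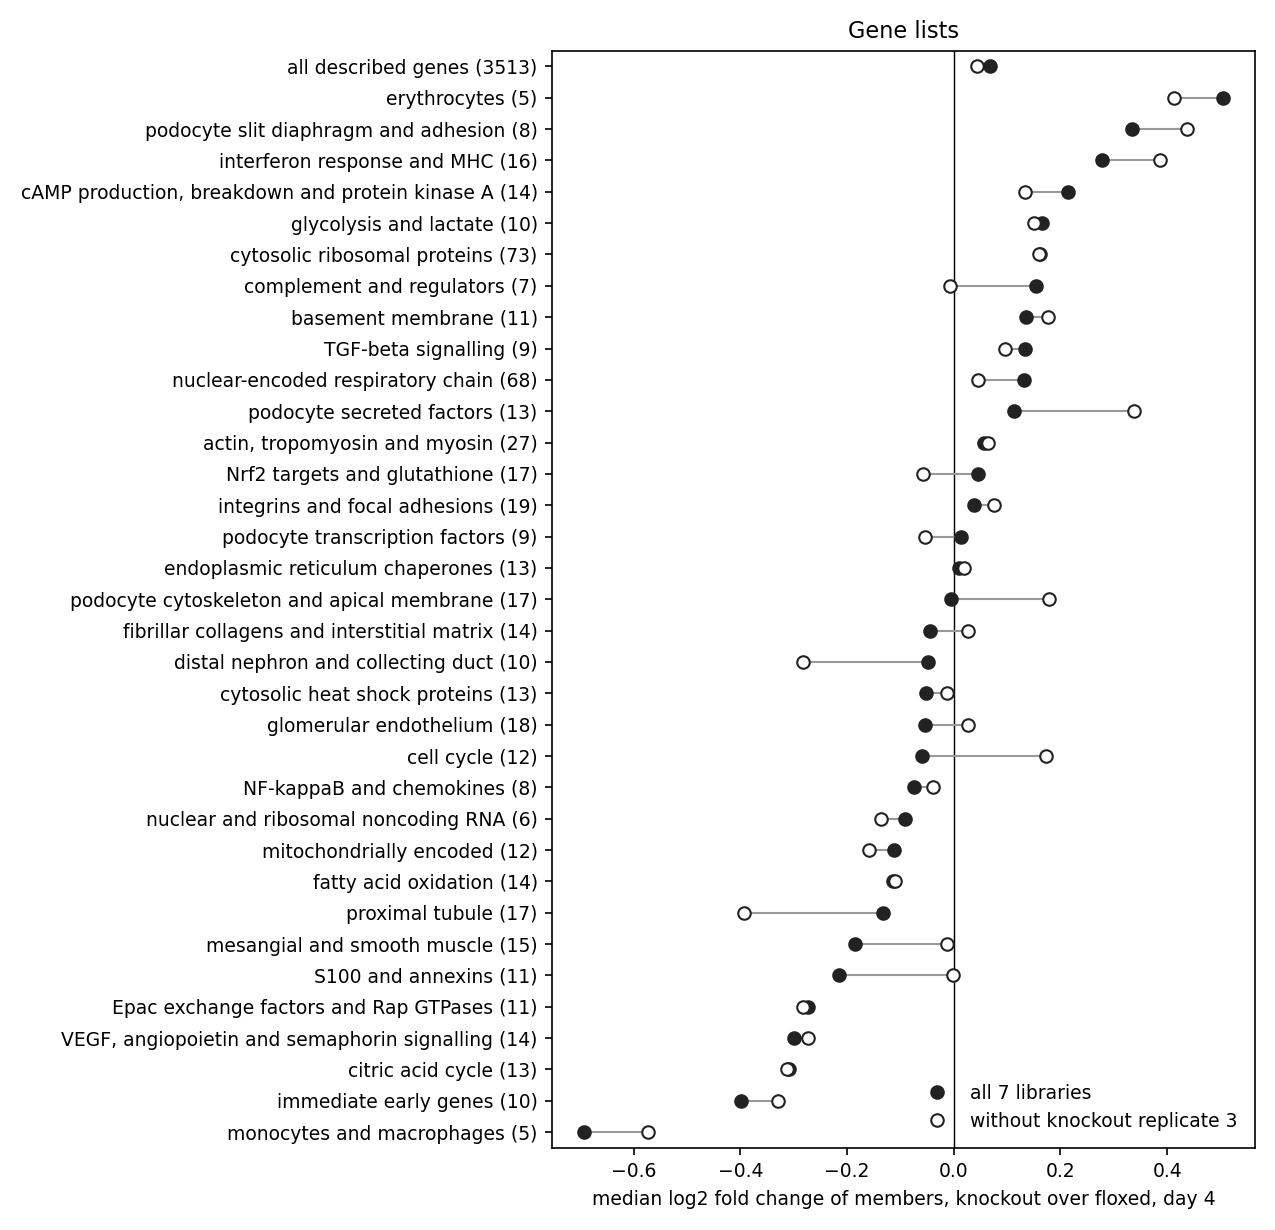
Median log2 fold change of knockout over floxed glomeruli at day 4 (horizontal axis) over the members with 50 CPM or more of each gene list, with the number of such members in parentheses, from all 7 libraries (filled) and without knockout replicate 3 (open). All 3513 genes give 0.07 and 0.04; ribosomal proteins (0.16) and the citric acid cycle (−0.31) hardly move, while podocyte cytoskeleton (−0.0050 to 0.18) and cell cycle (−0.06 to 0.17) do.

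The remaining lists had few members apart. Of 13 podocyte secreted factors 8 lay above 0 (median 0.11, and 0.34 without knockout replicate 3), led by Sema5a (−0.61 ± 0.31), a semaphorin, and Npnt (0.46 ± 0.25), which encodes nephronectin of the basement membrane. Of 14 genes of fatty acid oxidation 6 lay above 0 (median −0.11), with Echs1 the 1 at an unadjusted p under 0.05, against 2.99% of all 3513 genes. Gclm, the modifier subunit of the enzyme that starts glutathione synthesis, had 55.3, 1.14, 50.6 and 63.9 CPM in knockout libraries, against 127, 273 and 61.8 CPM in floxed libraries, while 9 of the 17 Nrf2 target genes lay above 0. Of 10 immediate early genes 4 lay above 0 (median −0.40), and Btg1, an antiproliferative gene, was lower without overlap (−1.78 ± 1.06). Of 11 S100 and annexin genes 4 lay above 0 (median −0.22, and −0.00062 without knockout replicate 3, in which 2 of them had 0 reads). Spp1, which encodes osteopontin of the distal nephron, had 94.0, 96.8, 80.5 and 44.4 CPM in knockout libraries, against 179.7, 83.5 and 239 CPM in floxed libraries, with floxed replicate 2 inside the knockout range.

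The same genotypes were compared in other mice, under PBS and at day 11, in the same model. EdgeR called 0 genes for the difference of the day 4 contrast from that under PBS (0%, smallest adjusted p 0.52, 1076 genes at an unadjusted p under 0.05, 7.74%), and 0 for its difference from that at day 11 (0%, smallest adjusted p 0.62, 910 genes, 6.55%). Within the 3513 genes 94 (2.68%) and 93 (2.65%) stood at an unadjusted p under 0.05. For the difference from PBS DESeq2 called 1113 genes (8.01%) and voom 10 (0.072%). For the difference from day 11 DESeq2 called 794 genes (5.71%) and voom 8 (0.0576%). Leaving out knockout replicate 1 gave 4 and 11 calls by edgeR. Of the 105 genes at an unadjusted p under 0.05 at day 4, 55 (52.4%) had the same sign under PBS and 53 (50.5%) at day 11, and over all 3513 genes the shares were 50.6% and 50.6%. Of the genes without overlap 93 (55.4%) had the same sign under PBS and 92 (54.8%) at day 11.

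For the 24 named genes, which were chosen by their day 4 values, the same sign was found for 10 under PBS and for 13 at day 11. Under PBS 2.19% of the 3513 genes had an unadjusted p under 0.05, and the share at day 11 was also 2.19%. Of the 24 this held for R3hdm4 under PBS, with the opposite sign (−1.50 ± 0.57 under PBS, 1.74 ± 0.55 at day 4 and −0.37 ± 0.49 at day 11). Lrrfip1 kept its sign with smaller values, at 0.49 ± 0.40 under PBS, 1.80 ± 0.40 at day 4 and 0.44 ± 0.35 at day 11. Arap3 was at −0.02 ± 0.56 under PBS, 2.11 ± 0.56 at day 4 and −0.31 ± 0.48 at day 11. Malat1 was at 0.19 ± 0.15 under PBS, −0.46 ± 0.14 at day 4 and 0.12 ± 0.13 at day 11. Nipal1, not among the 24, was at 8.74 ± 1.76 under PBS, 5.12 ± 1.47 at day 4 and 7.50 ± 1.44 at day 11. Rapgef3 was at −1.16 ± 0.46 under PBS, −0.67 ± 0.43 at day 4 and −0.21 ± 0.40 at day 11.

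**Figure D5:**
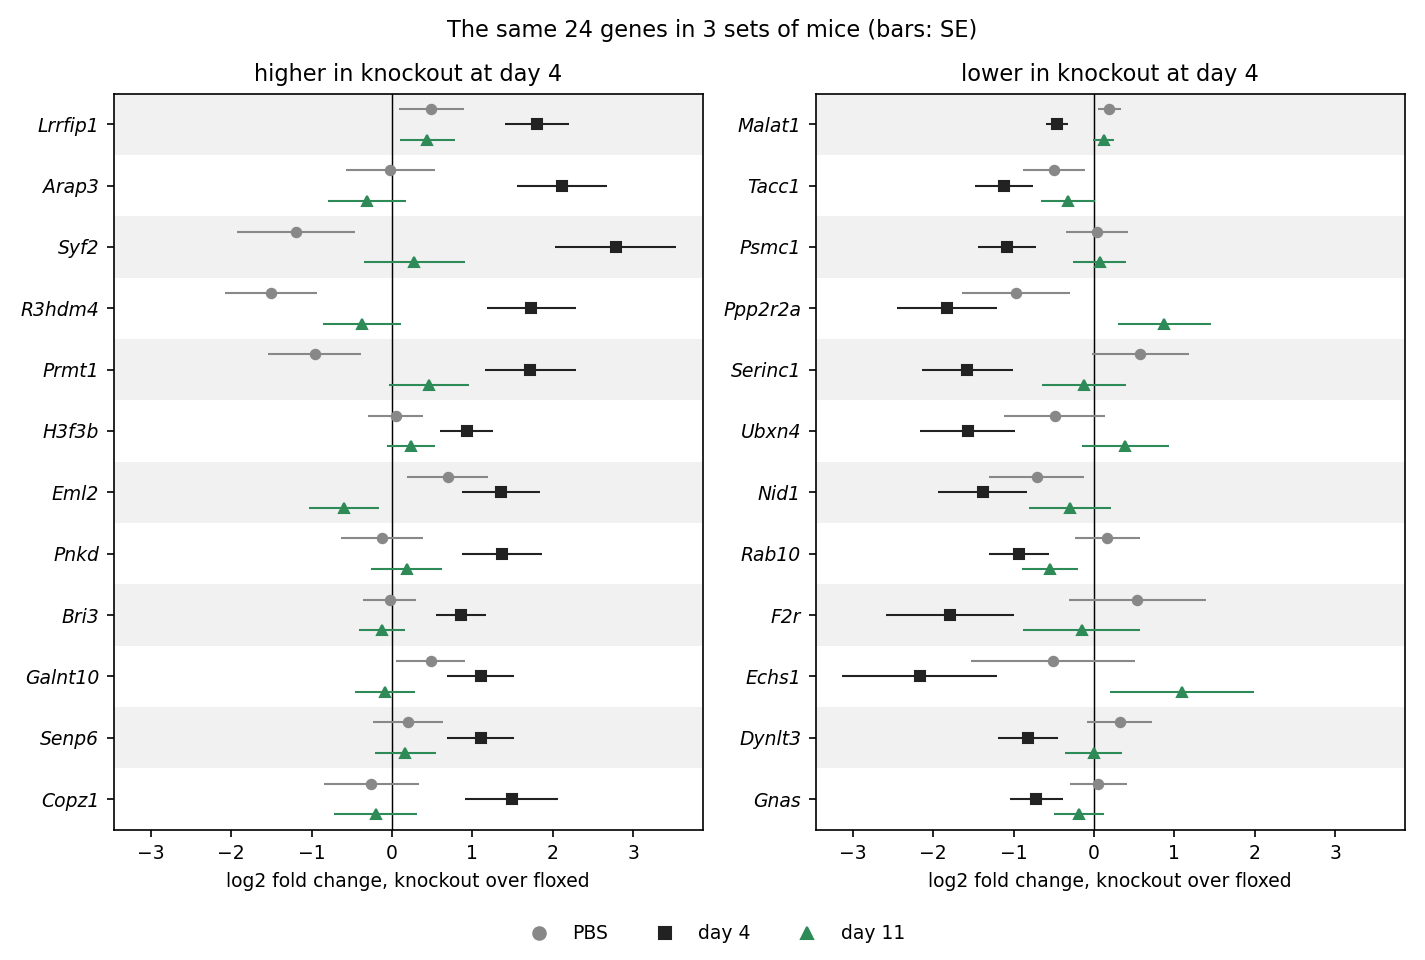
Log2 fold change of knockout over floxed glomeruli with its SE (horizontal axis) under PBS, at day 4 and at day 11 for the 24 genes chosen by their day 4 values. At day 4 the choice puts 12 genes above and 12 below 0; the same sign is seen for 10 of the 24 under PBS and for 13 of the 24 at day 11.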

How the data were processed

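Gene tables with estimated counts were deposited for 21 glomerular libraries, and the tools listed for them in the submitters' processing notes are DRAGEN, fastp, FastQC and Picard, with mm10 as the build. Annotation release, strand setting and treatment of duplicates or molecular tags: not given in the sources used here. The estimated counts, as deposited, were rounded to whole numbers (95.2% of values above 0 were whole within 0.005). IDs were matched, ignoring versions, to GENCODE symbols (35513 of 35598). No pair of libraries was identical. The labels describe 1 library per mouse.

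EdgeR 4.0.16 (R 4.3.3) tested the counts. Low genes were removed by filterByExpr (minimum count 10), and the model had TMM factors, 6 group means over all 21 libraries, a robust quasi-likelihood fit and Benjamini-Hochberg adjustment over 13898 genes, called at 0.05. Each SE was obtained from the F statistic, as the absolute log2 fold change over its square root. The prior count was 2 and the common coefficient of biological variation 1.66. CPM use TMM-adjusted library sizes. DESeq2 1.42.0, limma 3.58.1 (voom with quality weights), other designs and leaving out each library were the alternatives. Permutations used scipy 1.17.1 in Python 3.11.15 and figures matplotlib 3.10.9. The scripts were tested on simulated data.

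The genes named are fixed ones (among them Rapgef3, Nipal1, Prm1, Hk2 and podocyte and glycolysis genes), the 12 higher and 12 lower genes with the smallest p among those at 50 CPM or more without overlap, and up to 2 members of each list by p. Members, lists and rules were chosen with earlier results of these data known. Some genes are not reported here. Promoter windows and symbols come from different tables, RefSeq and GENCODE, both on GRCm38.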

Additional observations from a re-analysis of the deposited data

Results flagged for a closer look

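Among 141 gene and list values checked in the 4 knockout libraries, 16 had 1 library far from the other 3 by Dixon's criterion, which sets its gap to the nearest library against the range of all 4. Chance gives about 1 in 20 groups, a rate that the count cannot be set against: Mki67 and Pakap were chosen after their values were seen, and other genes for their day 4 p-values. Values are log2 CPM, and a gene without reads is at −3.16.

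Knockout replicate 3 was the library apart in 9 of them. It was at −3.16 for Rapgef4 (others 5.604 to 7.111) and at −3.16 for Mki67 (others 6.022 to 7.331), since it had no reads for either. It was high for Copz1 at 8.222 (others 7.278 to 7.369), for the adhesion molecule Vcam1 at 7.461 (others 5.542 to 5.772) and for Pakap at 5.289 (others without reads). Its list means were low for glomerular endothelium at 6.834 (others 8 to 8.223), for cell cycle at 2.06 (others 7.034 to 7.773), for NF-kappaB and chemokines at 4.834 (others 6.577 to 6.717) and for S100 and annexins at 5.473 (others 7.539 to 7.932).

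Knockout replicate 2 was low for Wt1 at 4.209 (others 6.955 to 7.229), for the complement regulator Cd59a at 5.788 (others 7.813 to 8.018), for Gclm at 0.3233 (others 5.664 to 6.001) and for the mean of TGF-beta signalling at 6.177 (others 6.738 to 6.788). Knockout replicate 4 was high for Ldha at 7.582 (others 6.608 to 6.678) and low for the mean of fatty acid oxidation at 5.259 (others 6.446 to 6.608). Knockout replicate 1 was low for Arap3 at 6.652 (others 7.394 to 7.419). Whether tissue composition or library quality sets these values was not tested.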

How the results depend on the processing

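Genes called by genotype (0 by edgeR) numbered 2 with no low-count filter, 800 by DESeq2, 8 by voom and 0 to 14 with 1 library left out. At 50 CPM or more and an unadjusted p under 0.05, higher genes (71) numbered 128 by DESeq2 and 20 with detected genes as a covariate. Lower genes (34) numbered 85 by voom, 13 from the 7 day 4 libraries alone and 19 with detected genes as a covariate. With 1 library left out lower genes numbered 19 to 77. From 20 CPM they numbered 54, but out of 6633 genes instead of 3513. Genes without overlap (2.73% higher, 2.05% lower) made up 4.81% to 6.12% and 4.21% to 6.15% with 1 library left out. For the difference from PBS DESeq2 called 1113, voom 10 and leave-one-out fits 0 to 4. For that from day 11 they called 794, 8 and 0 to 11. The cause was not tested, except that fewer values overlap with fewer samples.

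Signs of named genes reversed in 20 of 1676 values, 15 others became calls, mostly by DESeq2, and 14 of 594 list medians moved. The cause was not tested. With voom these were Wt1 (−0.05), Gapdh (−0.06), Keg1 (−0.19), Umod (−0.26) and Mki67 (−0.14), and with the detected-genes covariate Umod (−0.07), Hba-a2 (−0.32) and Vcam1 (−0.07). With 1 library left out the ranges were −0.23 to 1.63 for Rapgef4, −0.41 to 0.05 for Synpo, −0.17 to 0.49 for Wt1, −0.17 to 0.42 for Ldha, −0.05 to 2.25 for Foxd2, −0.92 to 0.07 for Tead1, −0.19 to 0.84 for Umod and −0.23 to 0.85 for Mki67. Rapgef3 stayed between −0.89 and −0.46.

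The main fit did not pair mice by replicate number. Same-numbered deviations from group means correlated at 0.0085, 0.0056 and −0.015, and unlike-numbered ones between −0.0148 and 0.00994. These values cannot show whether mice of the same number were handled together. With the replicate block edgeR called 0 genes, 59 higher and 49 lower genes at 50 CPM or more had an unadjusted p under 0.05, Rapgef3 was at −0.87 and Ldha at −0.01. With a median SE of 0.70 on the log2 scale, the 95% intervals of most genes reached a 2-fold change.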
